A study of Mus musculus with 4 samples.

Results

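A set of 10 genes of the circadian clock was followed through the livers of mice given a plant extract or saline. They are the period genes Per1, Per2 and Per3, the PAR bZIP transcription factors Dbp, Tef and Hlf, the REV-ERB nuclear receptors Nr1d1 and Nr1d2, and the repressors Ciart and Bhlhe41. The genes were chosen by name, as clock genes known to be driven through E-box or D-box elements. Earlier results of these data were known at that choice and at the choice of the lists below. Counts of calls on them are therefore a description, not a test of a set. All 10 were found among the 25239 genes counted. The livers came from C57BL/6 mice 6 to 8 weeks old. The 2 extract libraries come from animals given an extract of Gynura segetum, a medicinal plant rich in pyrrolizidine alkaloids, at 30 g/kg per day for 3 weeks by the intragastric route, from a stock concentrated to 2 g/mL. The 2 control libraries come from animals given normal saline for the same time. The series is about liver injury by these alkaloids, which liver enzymes turn into reactive pyrroles, and the comparison here asks how the clock genes stand after the extract. The labels give no sex, no hour of collection and no statement that libraries of a group are separate mice. A p-value here thus sets the difference between groups against the spread between libraries of a group, which could be technical only. Treatment and time of day cannot be told apart.

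The clock is a feedback loop of transcription that runs in nearly every cell, including hepatocytes. CLOCK or NPAS2 pairs with BMAL1 (gene Arntl) and binds E-boxes, which switches on the period and cryptochrome genes, the REV-ERB genes, Dbp, Ciart and Bhlhe41. Period and cryptochrome proteins then block the activators, and REV-ERB proteins repress Arntl, Npas2 and other genes with ROR elements, which ROR receptors activate. DBP, TEF and HLF bind D-boxes and drive many liver genes of xenobiotic and lipid metabolism, and NFIL3 competes with them for the same element. In a normal liver most of these transcripts rise and fall every day, so their level depends on the hour at which a liver is taken.

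Promoter sequence shows which of these elements lie close to the start site. RefSeq windows on GRCm38.p6, from 250 bases before to 50 bases after a start site, were at hand for 9 of the 10 genes; Per2 is named only. The letters searched on both strands were CACGTG for the E-box, CACGTT for the related E-prime box, and TTATGTAA or TTACGTAA for the D-box, and no match overlapped another. An E-box stood in the windows of 4 of 9 genes (Per1, Tef, Ciart and Bhlhe41), against 8.09% of all 27025 genes with a window. Nr1d1 was the 1 gene of 9 with an E-prime box (5.44% of all genes), and Per3 the 1 gene of 9 with a D-box (1.23% of all genes). Any of the 3 elements stood in 6 of 9 genes, against 14.1% of all genes. In the windows of Dbp, Hlf and Nr1d2 these letters do not occur. A match is a string of letters, not a measured binding site. Since the genes were chosen as driven through these elements, the shares describe them and test nothing. Sequence outside the windows was not searched.

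The 6 windows with a match are printed 5′ to 3′ on the strand of the gene, since they show how the elements are spaced, with matches in capitals. They lie at chr11:69098699-69098998 (Per1, plus strand, the first of 2 start sites), chr4:151044616-151044915 (Per3, minus strand), chr15:81802423-81802722 (Tef, plus strand, the first of 2 start sites), chr11:98775328-98775627 (Nr1d1, minus strand), chr3:95882179-95882478 (Ciart, minus strand) and chr6:145865371-145865670 (Bhlhe41, minus strand).
Per1: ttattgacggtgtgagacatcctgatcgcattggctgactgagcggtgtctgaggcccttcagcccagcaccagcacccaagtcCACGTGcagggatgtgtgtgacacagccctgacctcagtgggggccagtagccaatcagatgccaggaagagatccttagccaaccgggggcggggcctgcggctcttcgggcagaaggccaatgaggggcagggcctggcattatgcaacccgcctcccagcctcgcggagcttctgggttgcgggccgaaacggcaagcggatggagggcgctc
Per3: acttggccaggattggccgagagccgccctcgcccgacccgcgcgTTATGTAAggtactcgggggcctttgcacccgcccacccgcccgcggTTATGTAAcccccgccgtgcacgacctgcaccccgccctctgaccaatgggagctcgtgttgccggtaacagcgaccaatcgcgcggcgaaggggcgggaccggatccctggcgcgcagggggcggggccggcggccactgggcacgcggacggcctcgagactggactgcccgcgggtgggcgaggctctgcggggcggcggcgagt
Tef: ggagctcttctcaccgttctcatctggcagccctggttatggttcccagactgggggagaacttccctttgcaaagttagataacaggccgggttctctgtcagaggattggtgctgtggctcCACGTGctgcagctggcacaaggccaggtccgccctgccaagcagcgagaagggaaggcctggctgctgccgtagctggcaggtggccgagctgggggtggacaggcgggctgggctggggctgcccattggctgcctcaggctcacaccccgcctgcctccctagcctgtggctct
Nr1d1: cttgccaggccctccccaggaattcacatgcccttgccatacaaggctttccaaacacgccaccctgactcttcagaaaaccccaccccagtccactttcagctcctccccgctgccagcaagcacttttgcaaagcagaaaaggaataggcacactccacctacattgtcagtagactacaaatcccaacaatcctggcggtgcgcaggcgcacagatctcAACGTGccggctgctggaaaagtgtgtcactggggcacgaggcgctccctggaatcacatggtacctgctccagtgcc
Ciart: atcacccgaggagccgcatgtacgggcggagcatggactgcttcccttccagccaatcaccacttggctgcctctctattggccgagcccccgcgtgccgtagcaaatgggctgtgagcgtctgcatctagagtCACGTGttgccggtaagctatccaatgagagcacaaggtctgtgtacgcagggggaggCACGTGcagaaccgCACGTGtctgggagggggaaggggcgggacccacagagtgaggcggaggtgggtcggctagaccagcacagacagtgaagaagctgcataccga
Bhlhe41: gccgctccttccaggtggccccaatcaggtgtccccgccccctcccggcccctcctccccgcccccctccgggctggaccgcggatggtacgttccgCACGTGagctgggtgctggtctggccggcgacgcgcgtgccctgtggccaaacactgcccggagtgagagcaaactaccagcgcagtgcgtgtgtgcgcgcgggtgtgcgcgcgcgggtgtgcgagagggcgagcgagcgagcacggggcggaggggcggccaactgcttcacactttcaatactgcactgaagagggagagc
Ciart carried 3 E-boxes, which begin 116, 58 and 44 bases before the start site. The 2 D-boxes of Per3 begin 205 and 158 bases before it and have the same letters on the same strand. Single E-boxes begin 166 bases before the start of Per1, 127 before that of Tef and 153 before that of Bhlhe41, and the E-prime box of Nr1d1 begins 28 bases before its start and reads on the opposite strand. The other Tef start site also has an E-box, 138 bases before it, and the other Per1 window has none of the 3.

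**Figure D1:**
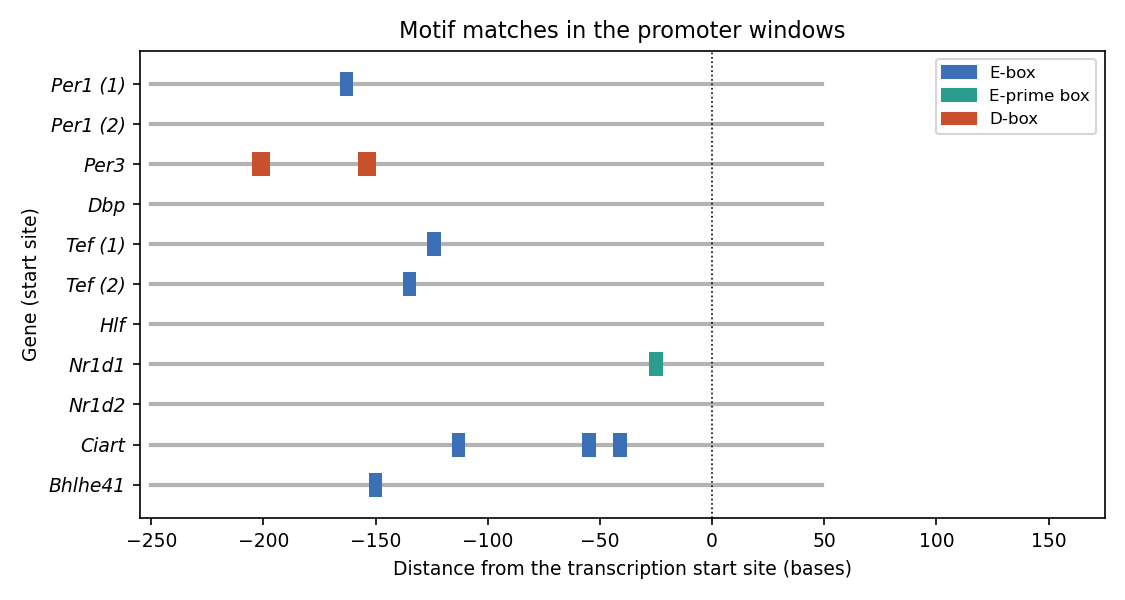
Positions of E-box, E-prime box and D-box matches in 300-base promoter windows of 9 clock genes; the x axis is the distance from the start site in bases, each grey line is 1 window, and each coloured bar is 1 match. Ciart holds 3 E-boxes and Per3 2 D-boxes, while the windows of Dbp, Hlf and Nr1d2 hold no match.

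Gene counts per library came to 49711750 and 32215268 in control replicates 1 and 2, and to 40013188 and 45754235 in extract replicates 1 and 2. Levels are given as CPM, reads per 1000000 on library sizes scaled by TMM, where 1 read is worth 0.0208 to 0.0337 CPM. Of all genes, 13963 had enough counts for edgeR's quasi-likelihood test. All 10 clock genes were among them, but Ciart passed the filter on low counts through the extract libraries alone.

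Every one of the 10 clock genes stood higher in both extract libraries than in either control library, and 9 rose past the threshold of an adjusted p of 0.05. The exception was Per1, the gene with the second smallest fold. Ciart counts among the 9 although it entered the test through the extract libraries alone. Over all genes tested, 4.91% were called higher and 27.6% had both extract libraries above both control libraries. Lower calls took 3.63% of all genes and 0 of the 10 clock genes. Log2 fold changes of the 10 ran from 0.74 (Hlf) to 6.04 (Dbp), with a median of 2.86, where the median of all genes was -0.0047. These are transcripts of whole liver, in which fewer cells of a type and less RNA per cell cannot be told apart.

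**Figure D2:**
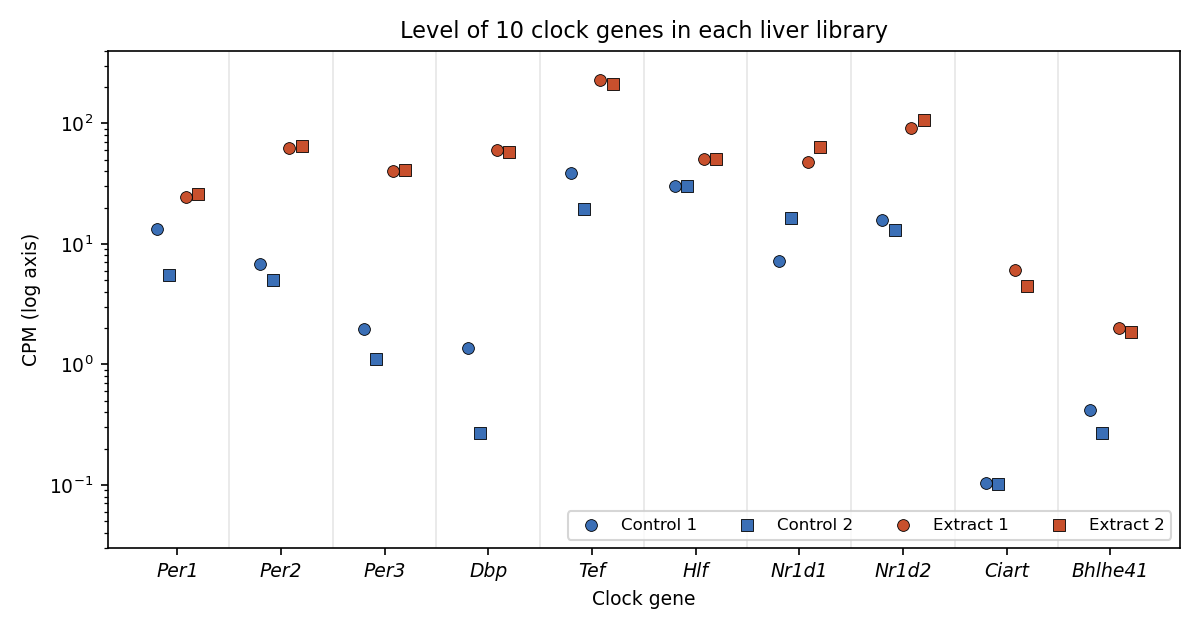
CPM of the 10 clock genes (log axis) in each of the 4 libraries; blue is control, red is extract, circles are replicate 1 and squares replicate 2. Red points lie above blue points for every gene, with the widest gaps for Ciart and Dbp and the narrowest for Hlf and Per1.

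Of the period genes, whose proteins block CLOCK and BMAL1, Per3 and Per2 rose and Per1 did not pass. Per3 (chromosome 4, 150997018 to 151044707) lay at 1.98 and 1.11 CPM in control replicates 1 and 2 and at 40.2 and 41.1 CPM in the extract replicates. Its groups were far apart, since the lower extract library was 20.3 times the higher control library. The log2 fold change of Per3 was 4.68 (SE 0.28, edgeR adjusted p = 0.000476). Per2 (chromosome 1, 91415977 to 91459351) had 6.86 and 5.02 CPM in control and 61.9 and 64.4 CPM in extract libraries. The extract pair of Per2 differed by a factor of 1.04, and the gap between the groups was 9.03-fold. Its log2 fold change was 3.40 (SE 0.19, edgeR adjusted p = 0.00034).

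Per1 (chromosome 11, 69095108 to 69109965) is a period gene that also answers to glucocorticoids and cAMP. It lay at 13.4 and 5.55 CPM in control and at 24.4 and 25.9 CPM in extract libraries. Control replicate 1 stood 2.40 times above control replicate 2, while both extract libraries were close to each other and above both controls. The log2 fold change of Per1 was 1.40 (SE 0.41, 95% interval 0.36 to 2.43, edgeR adjusted p = 0.117, unadjusted 0.0175). It was past the threshold with DESeq2's Wald test (1.40, adjusted p = 0.00327). The log2 fold change was 2.18 without control replicate 1 and 0.91 without control replicate 2. In such a fit the spread comes from the extract pair alone, so its calls cannot speak for the spread between controls.

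Per length, the period transcripts also changed in proportion. Counted as CPM per kilobase of exon, Per1 made up 63.3% and 50.4% of the 3 transcripts in control libraries and 22.7% and 23.1% in extract libraries. The share of Per2 went from 31.2% and 43.7% to 55.4% in both, and that of Per3 from 5.50% and 5.90% to 21.9% and 21.5%. The groups did not overlap in any of the 3 shares, which add up to a whole and so are not separate results. By CPM, the groups did not overlap, in either direction, for 54.4% of all genes tested.

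The PAR bZIP factors, which bind D-boxes, rose by very different amounts. Dbp (chromosome 7, 45705100 to 45710203), a direct target of CLOCK and BMAL1 with one of the widest daily swings known in liver, was represented by 66 and 8 counts in control replicates 1 and 2, or 1.38 and 0.269 CPM. In the extract libraries it had 2574 and 2753 counts, or 59.7 and 57.8 CPM. The control libraries differed 4.61-fold after a prior count of 1 was added to both, and the extract pair differed by a factor of 1.03. The log2 fold change of Dbp was 6.04 (SE 0.62, edgeR adjusted p = 0.0123), the 41st highest of 13963. It was 7.75 without control replicate 1 and 5.42 without control replicate 2. Pooled counts gave a ratio of 61.6, with an exact 95% interval of 49.0 to 78.6 for counting error only.

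Tef (chromosome 15, 81802673 to 81826863) was the most abundant of the 10 after the extract. It stood at 38.5 and 19.6 CPM in control and at 230.8 and 213.4 CPM in extract libraries. Control replicate 1 was again the higher of its pair, and the lowest extract value was 5.55 times the highest control value. Its log2 fold change was 2.93 (SE 0.33, edgeR adjusted p = 0.00798). Hlf (chromosome 11, 90336535 to 90390917) had the smallest change of the 10 and the tightest pairs. It lay at 30.3 and 30.4 CPM in control and at 50.6 and 51.0 CPM in extract libraries, a log2 fold change of 0.74 (SE 0.13, 95% interval 0.44 to 1.05, edgeR adjusted p = 0.018). That interval lies wholly below those of Tef and Dbp.

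The make-up of the family differed between the groups. Per kilobase of exon, Hlf held 45.9% and 63.9% of PAR bZIP transcripts in control libraries and 13.3% and 14.1% in extract libraries. Dbp went from 4.65% and 1.26% to 35.1% and 35.7%. Tef held 49.4% and 34.9% in control and 51.6% and 50.2% in extract libraries. The summed level of the family was 8.51 ± 1.95 CPM per kilobase in control and 55.5 ± 1.97 in extract libraries (SD, n = 2 each).

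Both REV-ERB genes, which encode haem-binding repressors of Arntl and Npas2, rose. Nr1d2 (REV-ERB beta, chromosome 14, 18204056 to 18239106) lay at 15.7 and 13.0 CPM in control and at 90.8 and 106.5 CPM in extract libraries. Its groups were 5.80-fold apart at the nearest points, and the log2 fold change was 2.78 (SE 0.17, edgeR adjusted p = 0.000476). Nr1d1 (REV-ERB alpha, chromosome 11, 98767932 to 98775377) lay at 7.21 and 16.5 CPM in control and at 47.6 and 63.9 CPM in extract libraries. For this gene the higher control library was replicate 2, the reverse of Per1, Dbp and Tef. Its log2 fold change was 2.25 (SE 0.44, edgeR adjusted p = 0.0497), just inside the threshold. It fell just outside with DESeq2's size factors (2.24, edgeR adjusted p = 0.0528), with upper-quartile scaling (2.21, 0.0544) and without the 20 most abundant genes (2.22, 0.0543). Without a filter on low counts the edgeR adjusted p of Nr1d1 was 0.185. Its log2 fold change was 1.76 without control replicate 1 and 2.95 without control replicate 2.

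The remaining pair are repressors of CLOCK and BMAL1. Ciart (also called Chrono, chromosome 3, 95878500 to 95882257) was nearly silent in the control libraries, with 5 and 3 counts, or 0.104 and 0.101 CPM, against 262 and 212 counts, or 6.07 and 4.45 CPM, after the extract. A count of 3 is worth 0.0625 and 0.101 CPM in the control libraries, so the control level of Ciart is at the limit of what these depths resolve. Pooled counts gave a ratio of 50.7 with an exact 95% counting interval of 25.5 to 118, and edgeR a log2 fold change of 5.64 (SE 0.47, adjusted p = 0.00139). Bhlhe41 (DEC2, chromosome 6, 145858243 to 145865420) was the rarest of the 10 after the extract, with 20 and 8 counts (0.417 and 0.269 CPM) in control and 87 and 88 counts (2.02 and 1.85 CPM) in extract libraries. The groups were 4.43-fold apart at the nearest points. Its log2 fold change was 2.46 (SE 0.53, edgeR adjusted p = 0.0368).

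Parts of some of these genes overlap other genes, and the strand setting of the counting is not given in the sources used here. Dbp shares 539 of 2993 exonic bases with Sphk2 on the opposite strand, and Nr1d1 shares 263 of 3077 with Thra, which encodes a thyroid hormone receptor. Reads in these stretches cannot be assigned without strand. Neither neighbour passed the test. Sphk2 lay at 54.2, 42.1, 37.8 and 38.6 CPM (control 1 and 2, extract 1 and 2; log2 fold change -0.34, edgeR adjusted p = 0.272). Thra lay at 20.6, 13.3, 15.1 and 14.2 CPM (-0.21, 0.65). Bhlhe41 shares 19.0% of its exonic bases with Gm43909 and Tef 2.45% with Gm17597, both on the opposite strand. Gm17597 had 1, 0, 6 and 31 counts, and Gm43909 is not among the genes counted.

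Order among the 10 changed as well. In CPM per kilobase of exon the control order was Hlf (4.55), Nr1d1 (3.85), Tef (3.69), Nr1d2 (2.65), Per1 (1.68), Per2 (1.01), Dbp (0.275), Per3 (0.161), Bhlhe41 (0.0511) and Ciart (0.0454), as means of 2 libraries. Ranges of the control pair overlapped between neighbours except from Nr1d2 to Per1, Per2 to Dbp and Per3 to Bhlhe41. In the extract libraries the order was Tef (28.2), Dbp (19.6), Nr1d2 (18.2), Nr1d1 (18.1), Per2 (10.8), Hlf (7.60), Per1 (4.46), Per3 (4.23), Ciart (2.33) and Bhlhe41 (0.287). There the ranges of Dbp, Nr1d2 and Nr1d1 overlapped and those of all other neighbours were apart. Hlf went from the top of the list to the sixth place and Dbp from the seventh to the second.

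Leaving out 1 library at a time kept all 10 fold changes above 0, but the number of calls changed. Without either control library 10 of 10 clock genes were called (12.8% and 12.4% of all genes tested were called higher without control replicate 1 and 2). Without either extract library 5 of 10 were called (1.61% and 2.15% of all genes without extract replicate 1 and 2), and these were Per2, Per3, Tef, Nr1d2 and Ciart in both cases. Dbp, Hlf, Nr1d1 and Bhlhe41 then lost the call in both fits, although their log2 fold changes moved little (Dbp 6.04 and 6.08, Hlf 0.74 and 0.72). In such a fit the spread of the lone library is taken from the remaining pair, with spread shared over all genes. Over all genes tested the control pair was the wider one (median size of the log2 difference 0.30, against 0.18 in the extract pair). For Hlf itself it was not. Why these calls were lost was not tested. Other settings gave 10 of 10 clock genes higher with DESeq2's Wald test (7.41% of all genes tested), 9 with total counts as library sizes (6.73%), 9 with a replicate block (6.46%), 7 without a filter on low counts (5.08%) and 6 with a minimum fold of 1.5 (2.25%).

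**Figure D3:**
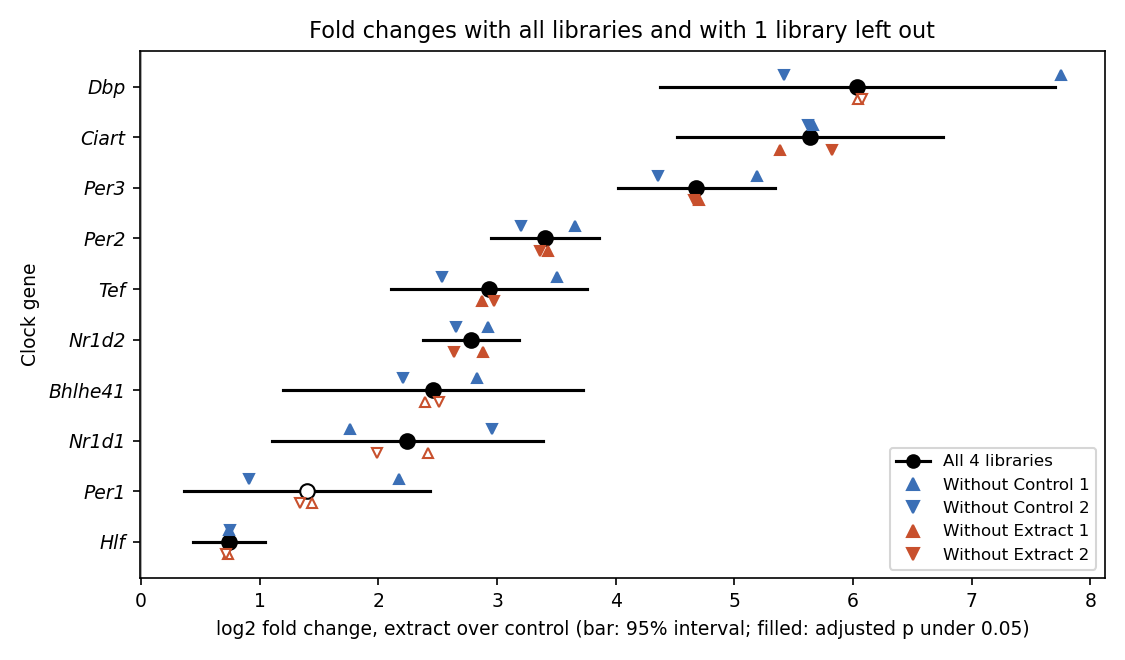
Log2 fold change of each clock gene, extract over control; black circles with 95% intervals use all 4 libraries, triangles leave out 1 library, and filled symbols have an adjusted p under 0.05. All values lie above 0, and Dbp, Hlf, Nr1d1 and Bhlhe41 lose the call when either extract library is left out.

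The control pair was spread more widely than the extract pair. Inside the control pair, 3 of the 10 clock genes differed more than 2-fold (Dbp 4.61-fold, Per1 2.40-fold and Nr1d1 2.28-fold), against 12.8% of all genes tested. Inside the extract pair it was 0 of 10, against 5.59% of all genes. The median size of the log2 difference was 0.67 in the control pair and 0.10 in the extract pair for the clock genes, and 0.30 and 0.18 for all genes tested. For 8 of the 10 genes the control pair was the wider one, as it was for 66.1% of all genes, and the exceptions were Hlf and Ciart.

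The control differences of Dbp, Per1, Nr1d1 and Tef were larger than counting error. By size they ranked at the 97.6th percentile of all genes for Dbp, the 91.3rd for Per1, the 90.5th for Nr1d1 and the 86.8th for Tef (1.96-fold). Their exact 95% counting intervals of log2(replicate 1 over replicate 2) were 1.29 to 3.62, 1.02 to 1.52, -1.40 to -0.99 and 0.84 to 1.11. Per3 (1.75-fold), Per2 (1.36-fold) and Nr1d2 were also higher in control replicate 1, with intervals above 0. Hlf was level between the control libraries, with a ratio of 0.996, and the counts of Ciart and Bhlhe41 were too low to resolve a difference, with intervals that span 0. Nr1d1 was thus the 1 gene of 10 with an interval wholly below 0, that is, higher in control replicate 2. In the extract pair the widest differences were Ciart (1.36-fold, higher in replicate 1) and Nr1d1 (1.34-fold, higher in replicate 2).

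**Figure D4:**
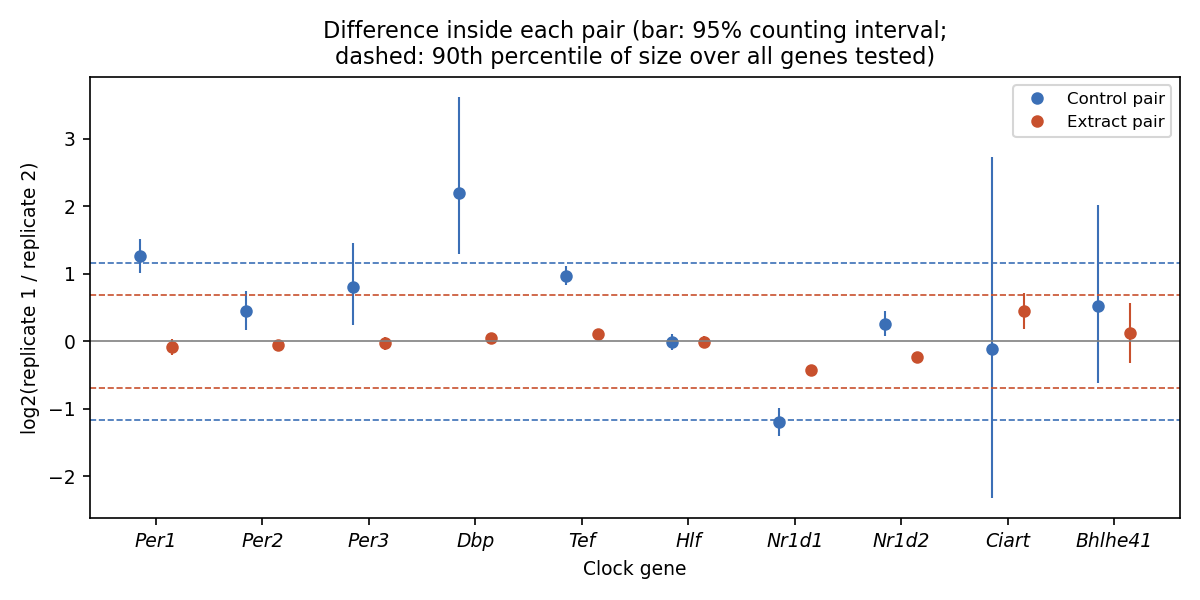
Log2 ratio of replicate 1 to replicate 2 inside the control pair (blue) and the extract pair (red) for each clock gene; bars are 95% counting intervals and dashed lines the 90th percentile of the size over all genes tested. Dbp and Per1 lie above and Nr1d1 below the control lines, while no gene leaves the extract lines.

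Other transcripts also parted the control libraries. Replicate 1 was higher for 8 of 9 tested targets of cAMP and CREB, with a median log2 difference of 1.52, against 0.03 for all genes. Clock protein modifiers (10 of 14, median 0.15), Kupffer cell markers (6 of 6, 0.34) and stellate cell markers (6 of 6, 0.50) also leaned to replicate 1. Some lists leaned to replicate 2. Replicate 1 was higher for 4 of 12 genes with REV-ERB and ROR elements (median -0.39). It was higher for 6 of 17 PAR bZIP output genes (-0.12) and 4 of 13 glucocorticoid receptor targets (-0.29). E-box output genes were split evenly (6 of 12, 0.03). T, NK and B cell markers summed to 11.3 CPM in control replicate 1 and 3.50 in control replicate 2, and the depth was also larger in replicate 1. Their part in the spread of Per1 and Dbp was not tested.

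The activators that drive these genes through E-boxes stood on the other side. Arntl lay at 42.7 and 39.6 CPM in control and at 7.56 and 7.85 CPM in extract libraries, a log2 fold change of -2.42 (SE 0.15, edgeR adjusted p = 0.000476). Npas2, the alternative partner of BMAL1, went from 13.0 and 14.2 CPM to 0.510 and 0.546 CPM (-4.68, SE 0.26, edgeR adjusted p = 0.00034). Clock fell less, from 72.5 and 66.0 to 43.1 and 37.4 CPM (-0.78, SE 0.15, edgeR adjusted p = 0.0225). The 4th activator on the list, Arntl2, was rare, with 0.438 and 0.370 CPM in control and 0.881 and 1.24 CPM in extract libraries, and did not pass (1.38, edgeR adjusted p = 0.22). Thus 3 of 4 activators fell and 0 rose, where 3.63% of all genes tested were called lower and 4.91% higher. Fewer of these activators were called lower without either extract library, and so were fewer of all genes.

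Repressors outside the 10 genes were split. Cry2 rose (0.76, SE 0.16, edgeR adjusted p = 0.0325) from 27.0 and 23.0 to 45.5 and 39.0 CPM. Cry1, which carries ROR elements besides its E-boxes, fell (-1.03, SE 0.17, edgeR adjusted p = 0.0155) from 28.5 and 24.1 to 11.9 and 13.9 CPM. Nfil3 fell (-2.15, SE 0.18, edgeR adjusted p = 0.00151) from 60.8 and 79.6 to 14.7 and 16.9 CPM. Bhlhe40 (DEC1), the close relative of Bhlhe41, had 80.1 and 29.5 CPM in control and 132.6 and 130.2 CPM in extract libraries and did not pass (1.26, SE 0.50, edgeR adjusted p = 0.243). Its control pair was split in the same direction as that of Per1. So 1 of 4 repressors was called higher and 2 lower (4.91% and 3.63% of all genes). Without either extract library fewer were called in each direction, as over all genes.

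**Figure D5:**
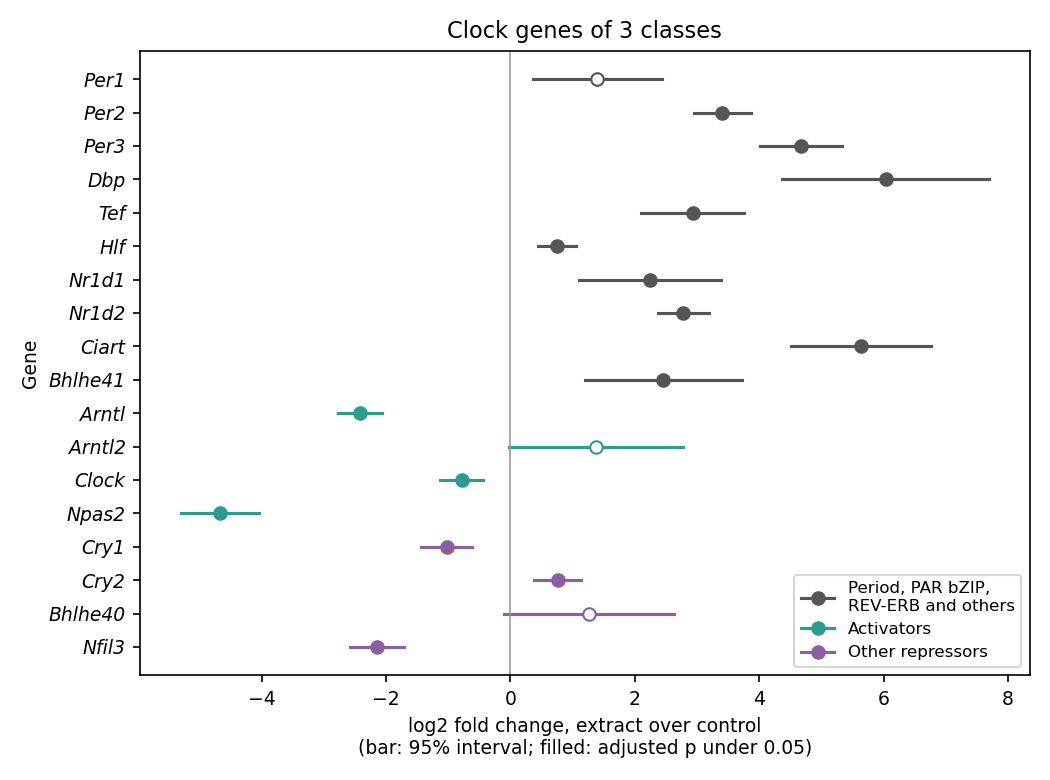
Log2 fold change (extract over control) with 95% intervals for the 10 clock genes (grey) and for tested activators (green) and other repressors (purple); filled circles have an adjusted p under 0.05. The grey values are all positive, while Arntl, Clock, Npas2, Cry1 and Nfil3 are negative.

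Set against other clock transcripts per kilobase of exon, these families stood as follows. These ratios were chosen after the values had been seen and have no test. PAR bZIP transcripts were 0.329 and 0.181 times those of Nfil3 in control libraries and 7.85 and 6.48 times in extract libraries. Period transcripts were 0.293 and 0.181 times the cryptochrome transcripts in control and 1.77 and 1.92 times in extract libraries. The cryptochrome sum joins Cry1, which fell, and Cry2, which rose. Per2 was 0.206 and 0.163 times Arntl in control and 10.5 times in both extract libraries. In each of these ratios the groups did not overlap, as was so by CPM, in either direction, for 54.4% of all genes tested.

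Output genes of the same elements were read from lists. On the list of 12 E-box output genes, 6 were called higher, 0 lower and 6 neither, with a median log2 fold change of 0.87. Over all genes tested 4.91% were called higher and 3.63% lower. The count of higher calls on this list rose without control replicate 2, as did the share of all genes called higher. Usp2, a deubiquitinase with a strong daily rhythm, went from 3.42 and 3.06 to 37.5 and 32.1 CPM (3.42, SE 0.18, edgeR adjusted p = 0.000292). On the log2 scale Noct, a rhythmic phosphatase, rose by 2.06 and Pfkfb3, a regulator of glycolysis, by 1.70. Cdkn1a, a cell cycle inhibitor that also stands on the glucocorticoid list, rose by 4.05. Which regulator raised it was not tested.

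Of 17 PAR bZIP output genes 4 rose, 0 fell and 13 did neither, with a median of 0.34, against 4.91% higher and 3.63% lower over all genes. DESeq2's Wald test called 7 higher and 2 lower, against 7.41% and 6.58% of all genes. Leaving out either control library raised the calls in both directions, as it did over all genes. The 4 were Cyp2a5 (2.62, SE 0.21, edgeR adjusted p = 0.00114), Cyp2a4 (1.30, 0.15, 0.00509), the P450 reductase Por (1.22, 0.16, 0.00694) and the pyridoxal kinase Pdxk (0.77, 0.16, 0.0353). Cyp2a4 and Cyp2a5 are near-identical copies, so the split of reads between them is uncertain.

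On the list of 12 genes with REV-ERB and ROR elements, 8 were called lower, 0 higher and 4 neither, with a median of -1.62, against 3.63% lower and 4.91% higher over all genes. Most of these 8 are repeats, since Arntl, Npas2, Clock, Cry1 and Nfil3 were already counted among the activators and repressors above. The count of lower calls was 4 with a minimum fold of 1.5, against 1.33% of all genes. It also shrank without either extract library, as did the share of all genes called lower. Cyp8b1, the sterol 12-alpha-hydroxylase of bile acid synthesis, had the smallest p-value (-4.28, SE 0.20, edgeR adjusted p = 0.000292), followed by Npas2, Arntl and Nfil3. Of 14 modifiers of clock proteins, such as casein kinases and ubiquitin ligases, 1 rose (Usp2) and 0 fell, with a median of 0.0031, a share near the 4.91% of all genes called higher. The lists share some members, such as Usp2 and Arntl.

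Signals that set the liver clock from outside were read from 3 further lists, each with few calls, where all genes tested gave 4.91% higher and 3.63% lower. Of 13 glucocorticoid receptor targets 1 rose (Cdkn1a), 2 fell (Zbtb16, -2.56, and Klf9, -1.43) and 10 did not pass, with a median of 0.36. Of 9 temperature-driven genes 1 fell (the heat shock protein gene Hsph1, -0.75, edgeR adjusted p = 0.0283) and 0 rose, with a median of -0.13. Of 9 tested cAMP and CREB targets 1 rose (Sik1, 1.23, edgeR adjusted p = 0.0193) and 0 fell, with a median of 0.61. Both single calls, of Hsph1 and Sik1, were lost without either extract library and with a minimum fold of 1.5. More cAMP and CREB targets were called higher without control replicate 1. More glucocorticoid receptor targets were called lower without either control library. More of all genes were also called in both directions in these fits. The part of these signals in the levels of the clock genes was not tested.

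Markers of cell types moved too, and their calls stand beside 3.63% lower and 4.91% higher over all genes tested. Hepatocyte markers were abundant in all libraries, and their 6 genes summed to 125350 and 134364 CPM in control and to 81381 and 88918 CPM in extract libraries, with 1 of 6 lower. Kupffer cell markers summed to 457.6 and 362.4 CPM in control and to 26.8 and 27.1 CPM in extract libraries, with 5 of 6 lower. Sinusoidal endothelial markers went from 239.9 and 238.1 to 120.6 and 126.1 CPM (5 of 6 lower), and vascular endothelial markers from 72.4 and 56.6 to 184.7 and 155.8 CPM (4 of 5 higher). Stellate markers lay at 427.5 and 315.4 CPM in control and 286.5 and 270.2 CPM in extract libraries (1 of 6 lower) and cholangiocyte markers at 43.1 and 50.2 against 43.8 and 46.1 CPM (1 of 5 lower). Lymphocyte markers came to at most 11.3 CPM and neutrophil markers to at most 8.67 CPM in any library, with 0 calls. Among 4 erythroid genes Hba-a1 and Hbb-bt were at 0 counts in all libraries. The clock runs in all of these cells, and the part of cell make-up in the clock gene levels was not tested.

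Among 11757 other tested genes with a mean of at least 1 CPM, those with a profile most like the mean of the 10 clock genes over the 4 libraries were Polk, Mup20, Zmat3, Usp2 and Ccng1. Likeness is the Euclidean distance between log2 CPM centred on each gene's mean, and it was 0.20, 0.20, 0.22, 0.33 and 0.34 in that order. Of the 10 clock genes themselves Per2 lay nearest to that mean (0.15) and Dbp farthest from it (3.43). With 4 libraries such a profile is close to a difference between 2 groups.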

How the data were processed

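Total RNA of mouse liver was sequenced in 2 control and 2 extract libraries, grouped by their titles. Per the submitters' processing notes, CASAVA 1.8, HISAT2 2.1.0, HTSeq and the mm10 build were used. For HTSeq the version, annotation and strand setting were not given in the sources used here. Values as deposited are raw read counts per gene symbol, made by the authors. In each file 5 closing rows that name no gene held 16.5% to 22.0% of records, and they entered neither library sizes nor tests.

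Genes kept by filterByExpr were tested with edgeR (version 4.0.16, under R 4.3.3), with TMM scaling, robust dispersion and a 2-sided quasi-likelihood F test on group alone. Benjamini-Hochberg adjustment ran over 13963 genes, with a threshold of 0.05. Standard errors were derived from the fold change and F. Log2 ratios inside a pair use a prior count of 1. Exact counting intervals are Clopper-Pearson at 95%, and they and the floors cover counting error only. Levels per kilobase use the exon union of GENCODE vM21. The test was tested on simulated data. Alternatives were other scalings, DESeq2 1.42.0, limma-voom (limma 3.58.1), other filters, no robust step, a minimum fold of 1.5, leaving out each library or the 20 most abundant genes, and a replicate block.

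All 10 clock genes are named, with the genes of the activator and repressor lists; from other lists up to 4 genes of smallest p-value with a mean of at least 1 CPM are named. The clock genes and the lists were chosen with earlier results of these data known. Of the other lists, 1 small list of clock receptors is not reported here by gene.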

Additional observations from a re-analysis of the deposited data

How the results depend on the processing

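All 10 clock genes stayed higher under all 15 alternatives. Of 150 log2 fold changes recomputed, 131 kept their side of the threshold, 16 lost the call and 3 gained it (Per1 each time), and Per2, Per3, Tef, Nr1d2 and Ciart were past it in every alternative. The number of clock genes called higher ranged from 5 to 10 when 1 library was left out. It was 6 with a minimum fold of 1.5, where Hlf, Nr1d1 and Bhlhe41 lost the call, and 7 without a filter on low counts, where Dbp (adjusted p = 0.0825) and Nr1d1 lost it. Of the 88 tested genes on the 10 other lists, 12 were called higher and 11 lower (4.91% and 3.63% over all genes tested). DESeq2's Wald test called 19 higher and 17 lower, a minimum fold of 1.5 left 6 lower, and leaving out 1 library gave from 8 to 30 higher and from 6 to 23 lower. Total counts as library sizes moved the median of all genes to 0.16 on the log2 scale and the split of all calls from 686 higher and 507 lower to 940 and 338; 9 clock genes were still called. Over all genes, calls came to 1035 and 919 with DESeq2's Wald test, 314 and 186 with a minimum fold of 1.5, and 233 and 134 without extract replicate 1. The replicate numbers of the titles tie the libraries to no shared animal or batch, and deviations of same-numbered libraries correlated at 0.145 over 13963 genes. With the replicate block 9 clock genes were called higher, as without it, and 902 genes were higher and 682 lower over all genes. Log2 differences inside a pair stayed within their counting intervals in 99 of 100 recomputed values; Tef in the extract pair moved from 0.11 to 0.16 with total counts. Depth limits Ciart, with 5 and 3 control counts, and Bhlhe41, with 20 and 8.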
